A study of Mus musculus with 6 samples.

Results

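Complement is a cascade of plasma proteins that tags surfaces and cells for removal and releases peptides that attract leukocytes. In the classical pathway, antibody-bound C1q activates the proteases C1r and C1s, which cleave C4 and C2, and the products assemble an enzyme that cleaves C3. In the alternative pathway, factor B joins deposited C3 to form another C3-cleaving enzyme, which properdin stabilizes. Regulators in plasma and on cell membranes restrain each step. The liver makes most plasma complement, while fibroblasts, macrophages and endothelial cells of vessels also transcribe parts of it. The 9 genes described here were taken by gene symbol from the 55335 genes of the count table. They are the proteases C1ra, C1s1 and C2, the proteins C4b and C3 that are cleaved and deposited, the alternative pathway genes Cfb and Cfp, and the regulators Serping1 and Cd55. The C1q genes and adipsin (Cfd) were left out of this set and are given among the other complement genes below.

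Bulk RNA was sequenced from aortas of wild-type C57BL/6 mice without a named treatment, 1 library a mouse. The young group held 3 animals of 6 weeks and the aged group 3 animals of 6 months. The study calls the mice male and calls those aged 6 months aged, and the fat around the vessel was dissected before the vessels were frozen. The labels name neither a litter nor a collection day. Total counts on genes lay between 31049632 and 45832185 per library. The question of the design was which genes differ between young and aged aorta.

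Some libraries stood apart from the rest. Xist, transcribed from the inactive X chromosome of female cells, reached 14806 counts in young replicate 1, while no other library exceeded 24, against the male sex stated for all mice. The Y-linked genes Ddx3y, Eif2s3y, Kdm5d and Uty had 53, 41, 7 and 5 counts in that library, and at least 1488, 1593, 519 and 209 in each of the others. Smooth muscle markers were abundant in every library, with 10 genes summing to between 28830 and 41230 CPM (counts scaled to library size after TMM normalization), while T and B cell markers summed to 10 CPM or less in every library. Aged replicate 2 had the highest summed adipocyte markers (4623 CPM against 1085 to 2681 elsewhere) and the lowest summed fibroblast markers (4739 CPM against 5840 to 13750). Aged replicate 3 had the highest summed endothelial markers (1951 CPM against 464 to 630 elsewhere). It also had the highest share of counts on mitochondrial genes and their nuclear copies (39.1% against 19.0% to 34.1%). Values are therefore also given without young replicate 1, without aged replicate 2 and without aged replicate 3.

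All 9 genes passed the filter on low counts and all 9 had a positive fitted log2 fold change of aged over young aorta, where 52.1% of the 16612 tested genes did. The median of the 9 was 1.25, beside 0.02 over all tested genes. With p-values of edgeR's quasi-likelihood fit adjusted over all tested genes (Benjamini-Hochberg), 0 of the 9 passed an adjusted p of 0.05, as did 0% of all genes. At an unadjusted p below 0.05, 8 of the 9 were higher in aged aorta, where 5.56% of all tested genes were. Among them Serping1 lay at the threshold, with an unadjusted edgeR p of 0.04998. DESeq2 called 3 of the 9 (C1s1, C3 and Cfb), where it called 1.32% of all genes as higher and 2.01% in either direction, and limma on FPKM called 0, with 3 or 4 at an unadjusted p below 0.05 by pseudocount. For 3 genes, C1ra, C1s1 and Cd55, every aged library lay above every young library, as did 7.74% of tested genes, and for 0 of the 9 every aged library lay below, as in 8.78%. Without aged replicate 2, edgeR called 4 of the 9 (C1ra, C1s1, C4b and Cfb), where 0.583% of tested genes were called as higher. Without young replicate 1 it called 0, with 4 at an unadjusted p below 0.05 and log2 fold changes between 0.62 and 1.79. Without aged replicate 3 it called 0, with 5 at an unadjusted p below 0.05. Aged replicate 2 was the lowest aged library for each of the 9 genes, so leaving it out raised the differences.

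**Figure D1:**
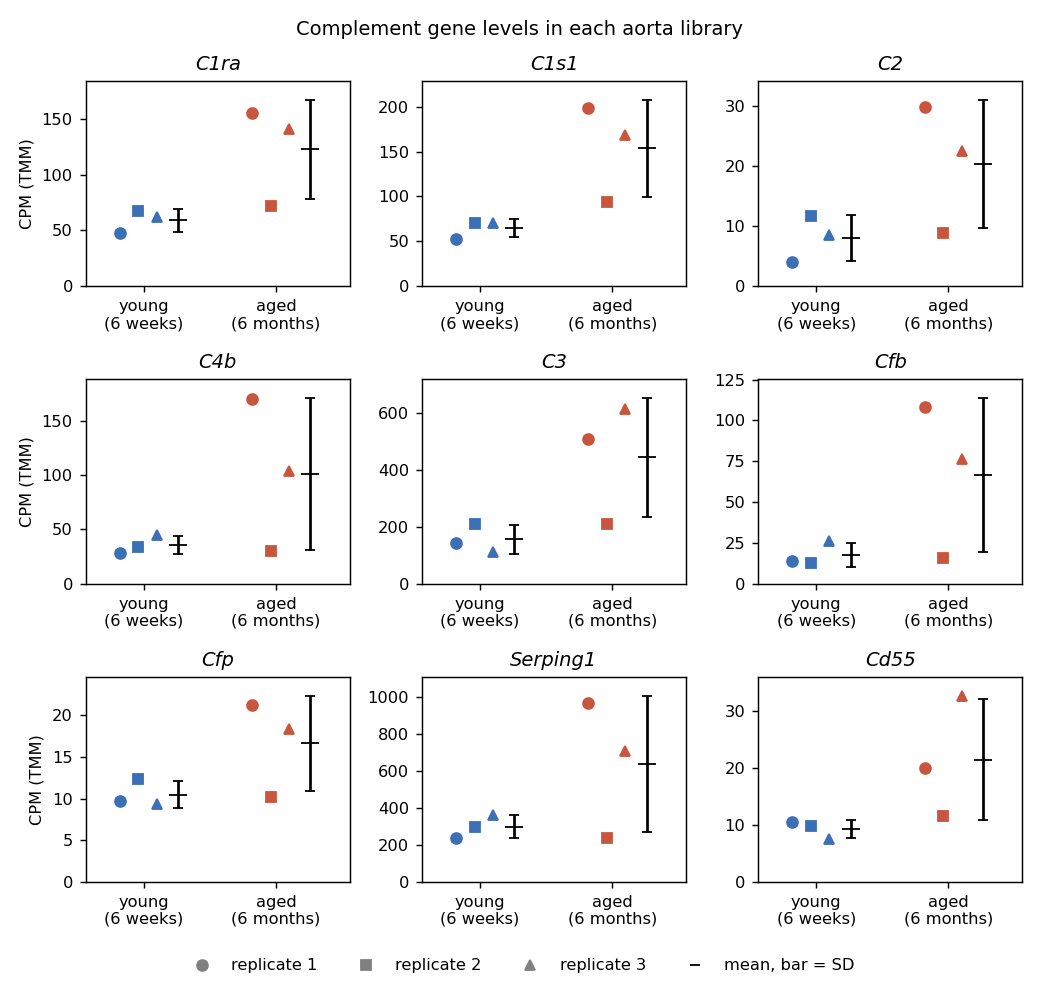
CPM (vertical axes, linear, from 0) of the 9 complement genes in the young (blue) and aged (red) libraries, with 1 symbol per replicate and the mean with its SD (n = 3) in black. Aged replicates 1 and 3 lie above all young libraries for each gene, and aged replicate 2 (red square) lies above all young libraries only for C1ra, C1s1 and Cd55.

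C1ra and C1s1 encode the proteases of the first complement complex, C1r, which activates C1s, and C1s, which cleaves C4 and C2. They lie on chromosome 6 of GRCm38, C1ra (ENSMUSG00000055172) from 124512405 to 124523443 on the plus strand and C1s1 (ENSMUSG00000038521) from 124530345 to 124542359 on the minus strand, with 6901 bases between them. C1s1 was at 52.6, 70.7 and 70.3 CPM in young replicates 1, 2 and 3 and at 199, 93.8 and 169 CPM in aged replicates 1, 2 and 3. The groups did not overlap, and aged replicate 2 was the nearest to the young libraries. The means were 64.5 ± 10.4 CPM in young and 153.8 ± 54.2 CPM in aged aorta (SD, n = 3 each). The fitted difference was 2.38-fold (log2 fold change 1.25 with a standard error, SE, of 0.29, 95% interval 0.57 to 1.94, edgeR adjusted p = 0.372). C1ra was at 47.7, 67.3 and 61.8 CPM in the young and at 155, 71.7 and 140 CPM in the aged libraries, replicates in the same order. It showed the same order of libraries in aged aorta, with a gap of only 67.3 to 71.7 CPM between the groups. Its log2 fold change was 1.06 (SE 0.30, edgeR adjusted p = 0.380).

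The proximal promoters of C1ra, C1s1 and C3 are shown, and their windows were chosen because they hold motif matches. Each window runs from 250 bases before the RefSeq start through the first 50 transcribed bases (RefSeq, GRCm38.p6), and capitals mark matches to the motifs searched. Those motifs were TTNNGCAA, bound by C/EBP factors, TTCNNNGAA, the GAS element bound by STAT factors, the interferon response element ISRE, given by name, and the NF-kappa B motif, on both strands. The 4 motifs occur in 10.8%, 8.30%, 3.44% and 8.46% of the 32851 RefSeq promoter windows of this length. RefSeq windows were matched for 5 of the 9 genes, C1ra, C1s1, C3, Cfp and Cd55. The windows of C1ra (chr6:124512371-124512670, plus strand), C1s1 (chr6:124542310-124542609, minus strand) and C3 (chr17:57228087-57228386, minus strand) read as follows.
C1ra: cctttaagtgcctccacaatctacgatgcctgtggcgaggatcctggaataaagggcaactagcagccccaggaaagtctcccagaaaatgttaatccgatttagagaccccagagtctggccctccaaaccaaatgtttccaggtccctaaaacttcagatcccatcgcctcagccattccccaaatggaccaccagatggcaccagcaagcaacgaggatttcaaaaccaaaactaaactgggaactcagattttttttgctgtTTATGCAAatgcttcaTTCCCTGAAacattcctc
C1s1: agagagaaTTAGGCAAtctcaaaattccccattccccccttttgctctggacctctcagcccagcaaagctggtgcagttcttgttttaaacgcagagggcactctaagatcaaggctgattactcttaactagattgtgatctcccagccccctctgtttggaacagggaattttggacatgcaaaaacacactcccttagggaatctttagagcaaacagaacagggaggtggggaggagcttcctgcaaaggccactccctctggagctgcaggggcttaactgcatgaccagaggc
C3: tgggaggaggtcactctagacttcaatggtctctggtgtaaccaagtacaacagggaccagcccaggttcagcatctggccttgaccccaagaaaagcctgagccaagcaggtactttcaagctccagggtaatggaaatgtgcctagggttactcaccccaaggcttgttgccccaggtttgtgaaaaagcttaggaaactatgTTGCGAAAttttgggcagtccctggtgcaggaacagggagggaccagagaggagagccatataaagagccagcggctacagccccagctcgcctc
Each of these windows held 1 C/EBP match. As the windows were chosen for their matches, this is not to be set against the shares above. It lay 45 to 38 bases before the start in C3, on the opposite strand, and 242 to 235 bases before the start in C1s1. In C1ra it lay 16 to 23 bases after the start, followed by a GAS match 32 to 40 bases after the start. The windows of Cfp and Cd55 and a second C1s1 window held no match to any of the 4 motifs. A match describes letters and not a bound site.

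C1s1 was transcribed slightly above C1ra per length in every library. The ratio of C1s1 to C1ra in FPKM (counts scaled by gene length and library, from the study's own table) was 1.049, 1.002 and 1.08 in young replicates 1, 2 and 3. It was 1.22, 1.25 and 1.15 in aged replicates 1, 2 and 3. The groups did not overlap in this ratio, which was 1 of 4 ratios read and was not tested. Reads of 50 bases limit it, since 50.8% of the 50-base windows in C1ra transcripts also occur in another gene, mainly C1rb, and 35.1% of those of C1s1 do, mainly in C1s2. C1rb had 195 counts in young replicate 1 and 0 in the other libraries. C1s2 had between 0 and 11 counts. How the counting assigned shared reads is not given in the sources used here.

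C4b and C2 supply the enzyme that cleaves C3 in the classical pathway. C4b (ENSMUSG00000073418) lies on chromosome 17 from 34728380 to 34743882, and C2 (ENSMUSG00000024371) from 34862604 to 34898265, in the class III region of the major histocompatibility complex. C4b was at 28.8, 33.6 and 45.1 CPM in young replicates 1, 2 and 3 and at 169.8, 29.8 and 103.4 CPM in aged replicates 1, 2 and 3. Aged replicate 2 lay among the young libraries and the other aged libraries lay above them. The log2 fold change was 1.495 (SE 0.56, 95% interval 0.19 to 2.80, edgeR adjusted p = 0.441), and 1.93 without aged replicate 2 (adjusted p = 0.0488 from edgeR, over alternatives 0.0488 to 0.791). Without aged replicate 1 it was 0.89. C4a, the copy of C4b that shares 34.6% of the 50-base windows of C4b, was at 1.20 to 2.39 CPM in young and 1.20 to 2.83 CPM in aged aorta, and its log2 fold change was -0.02. C2 was at 3.96, 11.7 and 8.42 CPM in the young and at 29.8, 8.83 and 22.5 CPM in the aged libraries. Its lowest value belonged to young replicate 1, and its log2 fold change was 1.35 (SE 0.53, edgeR adjusted p = 0.449). With 1 library left out the log2 fold change of C2 lay between 0.97 and 1.725, and without young replicate 1 it was 1.025. C2 overlaps Zbtb12 on the other strand and Gm20547, a readthrough of C2 and Cfb, on the same strand. Gm20547 had 2 counts or fewer in every library and Zbtb12 between 93 and 246, so the lower range of C2 counts (192 to 991) is of the size of those of Zbtb12.

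C3 is the protein on which the pathways of complement converge. Its cleavage deposits C3b on surfaces and frees the peptide C3a. The gene (ENSMUSG00000024164) lies on chromosome 17 from 57203970 to 57228136 and shares no 50-base window with another gene. C3 was at 144.5, 211 and 114 CPM in young replicates 1, 2 and 3 and at 510.1, 210.5 and 615.9 CPM in aged replicates 1, 2 and 3. Aged replicate 2 lay just below young replicate 2, so the groups overlapped. The means were 157 ± 49.8 CPM in young and 446 ± 210 CPM in aged aorta (SD, n = 3 each). The fitted difference was 2.84-fold, a log2 fold change of 1.51 (SE 0.42, 95% interval 0.53 to 2.48, edgeR adjusted p = 0.377). The DESeq2 adjusted p was 0.0198, and this value lay between 0.0198 and 0.765 over all alternatives.

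Cfb encodes factor B, the serine protease of the alternative pathway, and Cfp encodes properdin, which stabilizes its enzyme. Cfb (ENSMUSG00000090231) lies on chromosome 17 from 34856374 to 34862518, 85 bases from C2. Of all 9 genes, Cfb had the largest fitted difference. It was at 13.8, 12.8 and 26.0 CPM in young replicates 1, 2 and 3 and at 108.4, 15.6 and 76.5 CPM in aged replicates 1, 2 and 3. Aged replicates 1 and 3 lay far above the young libraries, and aged replicate 2 lay below young replicate 3. The fitted difference was 3.81-fold (log2 fold change 1.93, SE 0.65, 95% interval 0.40 to 3.46, edgeR adjusted p = 0.414 and DESeq2 adjusted p = 0.0438). Cfb shares 73.0% of its 50-base windows with the readthrough Gm20547, which the counts barely used. Cfp (ENSMUSG00000001128), on chromosome X from 20925454 to 20931555, had the smallest fitted difference. It was at 9.70, 12.4 and 9.35 CPM in the young and at 21.2, 10.2 and 18.4 CPM in the aged libraries. Its log2 fold change was 0.66 with a 95% interval of -0.04 to 1.36, and 0.62 without young replicate 1, the library with Xist counts.

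Serping1 encodes the C1 inhibitor, which inactivates C1r and C1s, and Cd55 encodes decay-accelerating factor, which breaks up C3-cleaving enzymes on cell membranes. Serping1 (ENSMUSG00000023224) lies on chromosome 2 from 84765387 to 84775444 and Cd55 (ENSMUSG00000026399) on chromosome 1 from 130439027 to 130462744. Serping1 was at 236.3, 297.9 and 360.7 CPM in young replicates 1, 2 and 3 and at 967.3, 237.7 and 708.9 CPM in aged replicates 1, 2 and 3. Aged replicate 2 again lay among the young libraries. The log2 fold change was 1.097 (SE 0.47, edgeR adjusted p = 0.482), and 1.49 without aged replicate 2 (adjusted p = 0.0572 from edgeR, over alternatives 0.0572 to 0.825). Without aged replicate 1 it was 0.67. Cd55 was at 10.5, 9.80 and 7.58 CPM in the young and at 20.04, 11.6 and 32.8 CPM in the aged libraries. It shares 9.12% of its 50-base windows, mainly with Cd55b, which had 1 count or fewer. Its groups did not overlap, and its highest value lay in aged replicate 3, as that of C3 did, while the other 7 genes were highest in aged replicate 1. The log2 fold change of Cd55 was 1.21 (SE 0.37, edgeR adjusted p = 0.390), and 0.77 without aged replicate 3.

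**Figure D2:**
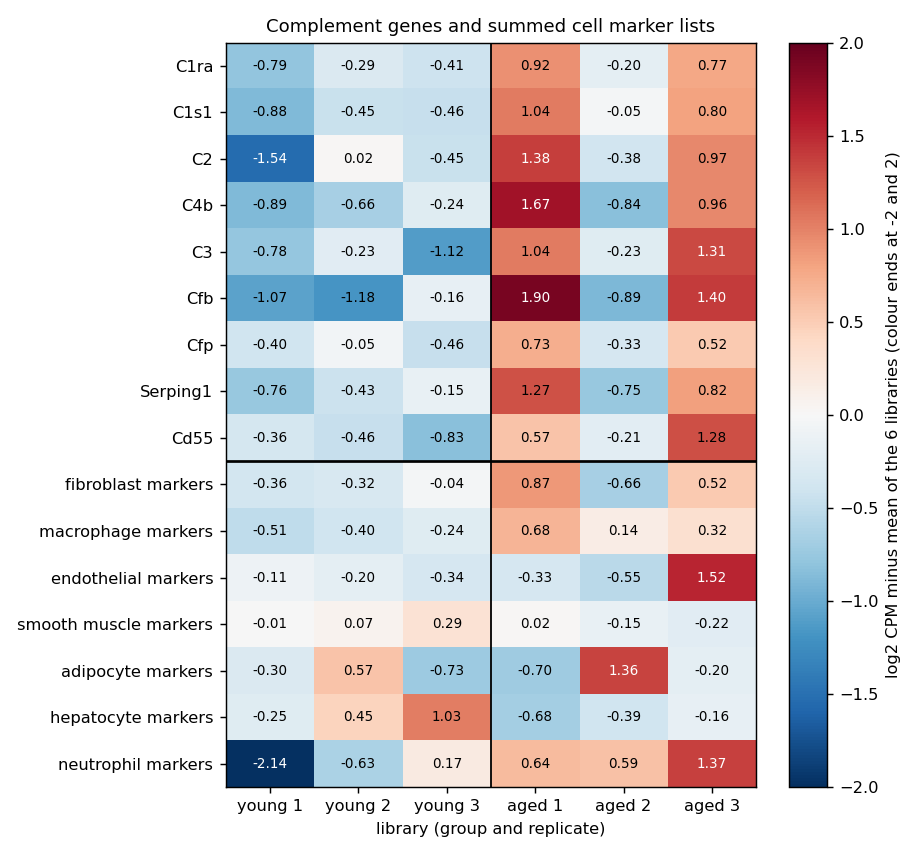
Log2 CPM of each complement gene, and of the summed CPM of 10 markers for each of 7 cell types, minus the mean over the 6 libraries (colour and printed number). Aged replicates 1 and 3 are above the mean for all 9 complement genes and for the fibroblast and macrophage sums. Aged replicate 2 is below it for the 9 genes and the fibroblast sum, and above it for the macrophage sum. Mertk holds 158 of the 273 CPM of that macrophage sum, which without Mertk lies below its mean.

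Levels between genes were compared per length, in FPKM. In young aorta Serping1 was the highest at 126 ± 29.2 FPKM (SD, n = 3), above C3 at 29.9 ± 9.45. C1s1 at 20.2 ± 3.65 and C1ra at 19.4 ± 3.63 followed, and C3 did not differ from C1s1 beyond their spread. C4b at 6.19 ± 1.59, Cfb at 6.10 ± 2.69 and Cfp at 5.90 ± 0.944 lay within each other's spread, as did C2 at 2.02 ± 1.00 and Cd55 at 1.86 ± 0.266 below them. In aged aorta Serping1 was at 230 ± 135 FPKM and C3 at 72.4 ± 32.8, while Cfb at 19.8 ± 14.2 lay above C4b at 14.9 ± 10.5 by less than their spread. The inhibitor stayed above its target proteases in every library. Serping1 over the sum of C1ra and C1s1 in FPKM was 3.10, 2.84 and 3.60 in the young and 3.60, 1.89 and 3.02 in the aged libraries, so the groups overlapped. Cfb over C3 lay between 0.109 and 0.413 in young and between 0.135 and 0.386 in aged aorta, and C4b over C3 between 0.143 and 0.357 and between 0.128 and 0.3004 in the respective groups.

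Summed markers of fibroblasts and of macrophages were highest in aged replicates 1 and 3, as these genes were. In aged replicate 2 the fibroblast sum lay below its mean over the libraries, as the 9 genes did. The macrophage sum lay above its mean there, but only with Mertk counted. Fibroblast markers (10 genes) summed to 5840 to 7285 CPM in young aorta, and to 13750, 4739 and 10780 CPM in aged replicates 1, 2 and 3. Of them, 6 of 10 were higher at an unadjusted p below 0.05, beside 5.56% of all tested genes, and the median log2 fold change was 1.39. The abundant collagen markers of the list did not rise with the others, with log2 fold changes of 0.17 for Col1a1 and -0.05 for Col1a2. Macrophage markers summed to 173 to 211 CPM in young and 273 to 398 CPM in aged aorta, with 7 of 10 higher at an unadjusted p below 0.05 and a median of 1.299. Mertk, whose log2 fold change was 0.02, held 158 of the 273 CPM in aged replicate 2. Without it the macrophage sums were 103, 90.2 and 81.2 CPM in the young and 334, 115 and 230 CPM in the aged libraries, an alternative chosen after the data were seen. The sum without Mertk in aged replicate 2 lay above every young library and below the mean over the libraries, as the fibroblast sum lay below its mean. Endothelial markers summed to 1951 CPM in aged replicate 3 and to 464 to 630 CPM in the other libraries. Neutrophil markers were sparse and also did not overlap between the ages, summing to 0.475, 1.35 and 2.36 CPM in the young and 3.25, 3.15 and 5.42 CPM in the aged libraries. Ly6g had 0 counts in all 6 libraries, and Ngp had 0 in every young library and 23, 10 and 20 in the aged ones. Hepatocyte markers summed to 77.1 to 186 CPM in young and 56.99 to 81.9 CPM in aged aorta, and 4 of 10 smooth muscle markers were lower at an unadjusted p below 0.05, beside 4.82% of all tested genes. In each of these lists edgeR called 0 genes at an adjusted p below 0.05. Mitochondrial genes and their nuclear copies held 19.0% to 27.3% of counts in young and 30.2% to 39.1% in aged aorta, and without them 8 of the 9 complement genes were still at an unadjusted p below 0.05. The part of these cell types in the differences of the complement genes was not tested, and in whole tissue more cells of a type cannot be told apart from more RNA per cell.

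Genes with profiles like those of the complement genes were looked for among the 9149 tested genes whose mean reached 10 CPM, by the mean absolute difference of log2 CPM after centring each gene over the 6 libraries. For C3 the nearest were Htra4, Tmem100 and Gpr39, at 0.13, 0.14 and 0.16. For C1s1 they were Dnm1, Nbl1 and Adamtsl2, at 0.10, 0.10 and 0.12. For Cd55 they were Fyn, Clec2d and Plvap, at 0.063, 0.13 and 0.13, of which Plvap is a membrane protein of endothelium. The nearest genes of C4b, Serpinf1 (0.086) and Dcn (0.10), are on the fibroblast list, and that of Serping1 was the matrix protease Mmp2 (0.050), all named after their values were seen. In the same way, Csf1r of the macrophage list was the second nearest gene to C1ra (0.094), after Hfe (0.078) and nearer than C1s1. The nearest genes of C2, Cfb and Cfp were Steap4 (0.17), Srpx (0.19) and Pkig (0.095), which are on none of the marker lists. Among the 9 genes, C1ra and C1s1 were nearest to each other (0.10), as were C4b and Serping1 (0.18) and C3 and Cd55 (0.24). These distances describe 6 libraries and include the difference between the ages.

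The other complement genes formed a list of 52 symbols, with 53 identifiers, of which 32 passed the filter on low counts. edgeR called 0 of the 32, with 8 higher and 1 lower at an unadjusted p below 0.05, beside 5.56% and 4.82% of all tested genes. DESeq2 called 3 as higher, C1qa, C1qb and 1 of 2 entries of Itgam, and edgeR called 2 without aged replicate 2, C1qa and Cd59a. The median log2 fold change of the 32 was 0.87, with 24 positive and 8 negative. For 4 of the 32 every aged library lay above every young library, and for 2 every aged library lay below. Of all tested genes, 7.74% and 8.78% did so. Among the C1q chains, the macrophage products that recognise antibody, C1qb was at 15.9, 9.34 and 9.99 CPM in young and at 61.1, 15.5 and 38.5 CPM in aged replicates 1, 2 and 3. Its log2 fold change was 1.70 and that of C1qa 1.59 (adjusted p 0.377 and 0.390 from edgeR, and 0.0215 and 0.0438 from DESeq2). Of the lectin pathway, the scavenger receptor Colec12 was lower in every aged library, at 141 ± 25.1 CPM against 205 ± 11.8 (SD, n = 3 each, log2 fold change -0.54), and the collectin Colec11 was higher in every aged library, with a log2 fold change of 0.73. Both had an adjusted p of 0.395 from edgeR. Cfd, the protease adipsin that cleaves factor B and is a product of adipocytes, was at 102 ± 76.4 CPM in young and 80.1 ± 33.7 CPM in aged aorta (SD, n = 3 each, log2 fold change -0.35, SE 0.57).

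Of the terminal components, which build the membrane attack complex, C7 was the only abundant one. It was at 7.31, 33.1 and 50.6 CPM in young replicates 1, 2 and 3 and at 158.1, 24.5 and 169.2 CPM in aged replicates 1, 2 and 3, and its log2 fold change was 1.95 (SE 0.85, edgeR adjusted p = 0.487). Aged replicate 2 lay below young replicates 2 and 3. Hc, which encodes C5, had 46 counts or fewer in every library, and C6 had 15 or fewer. C8a, C8b and C9 reached their highest counts, 46, 23 and 42, in young replicate 3. The hepatocyte marker Alb also peaked there at 102 CPM, against 10.8 to 23.3 CPM elsewhere. Of the same marker list, Apoa2, Ahsg and Hp peaked in other libraries, and Hp was at its lowest in young replicate 3 (17.3 CPM). The part of liver RNA in the counts of C8a, C8b and C9 was not tested. Of the fluid-phase regulators, clusterin (Clu) was at 689 ± 68.4 CPM in young and 693 ± 110.5 CPM in aged aorta (SD, n = 3 each, log2 fold change 0.01, SE 0.18). Of the membrane regulators, Cr1l, which in mice blocks C3 deposition, was at 61.7 ± 3.33 and 61.6 ± 9.41 CPM with a log2 fold change of -0.003 (SE 0.16), and Thbd had a log2 fold change of 0.84. Among receptors, Cd93 reached its highest value in aged replicate 3, and Itgb2 had a log2 fold change of 0.53 (SE 0.37).

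**Figure D3:**
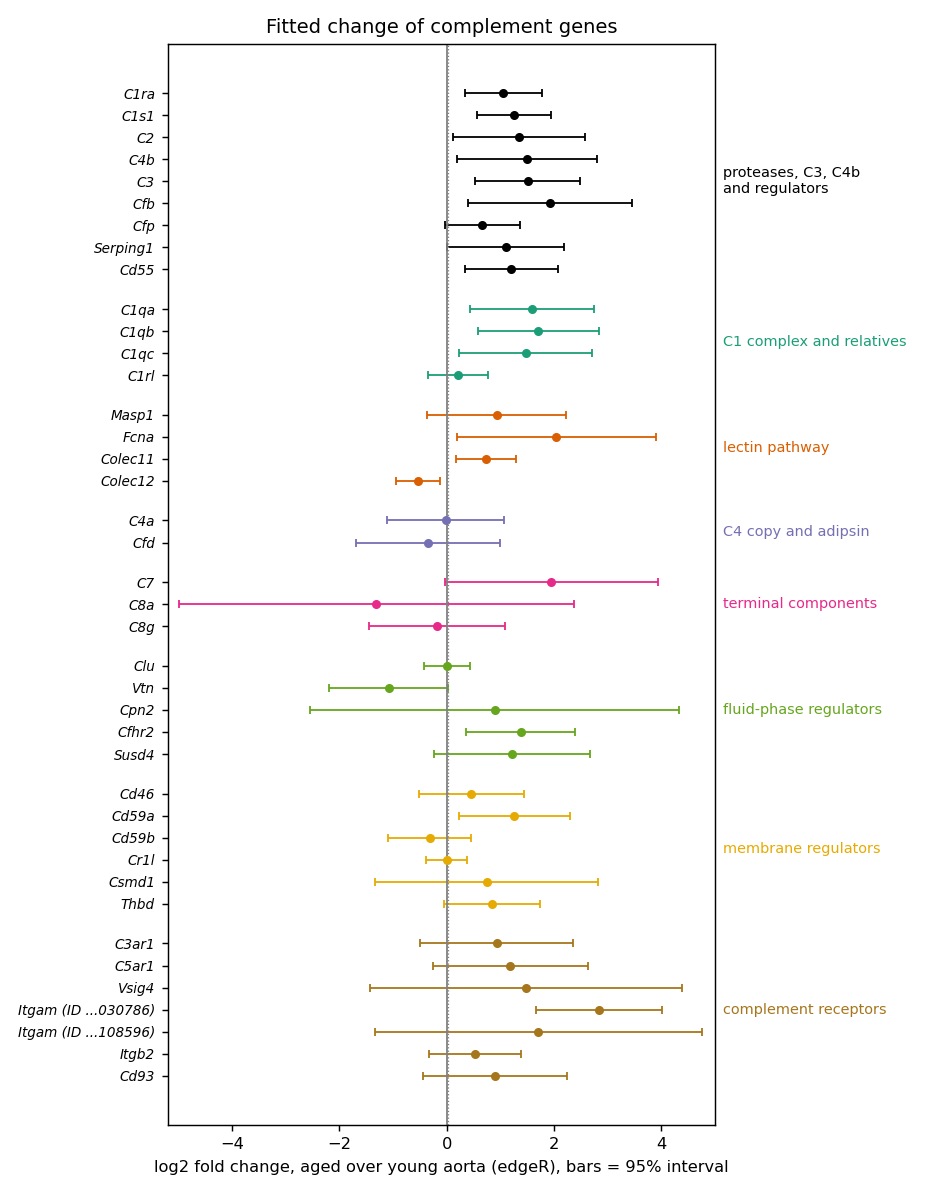
Fitted log2 fold change of aged over young aorta (horizontal axis) with its 95% interval from edgeR for the 9 complement genes (black) and 31 of the 32 other tested complement genes, coloured by role. The 9 lie between 0.66 and 1.93, and Clu, Cr1l and C4a lie near 0.

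**Figure D4:**
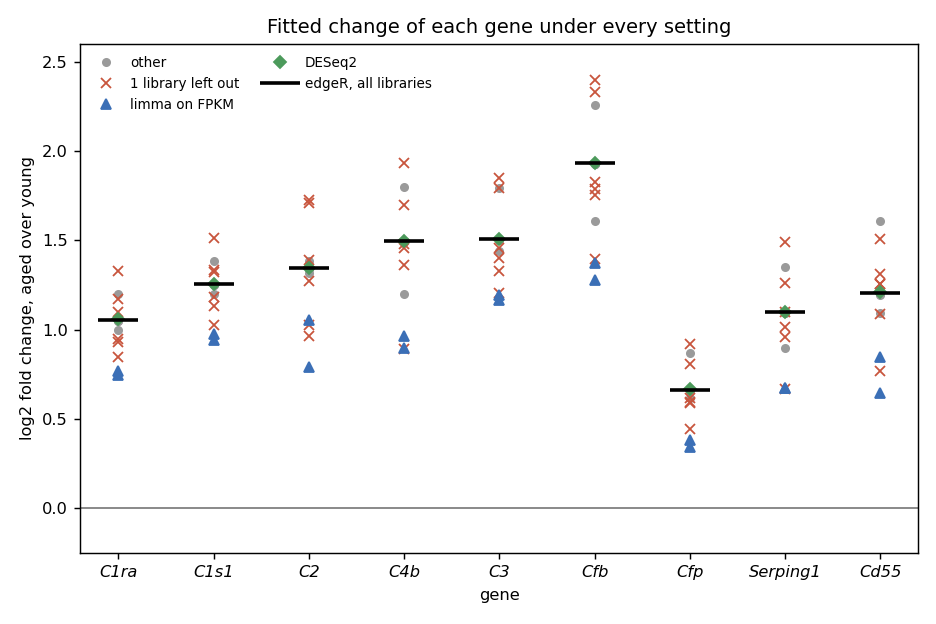
Log2 fold change of aged over young aorta (vertical axis) of each of the 9 genes, as a black bar for edgeR on all libraries and as points for 15 alternatives, namely 6 with 1 library left out (crosses), limma on FPKM with 2 pseudocounts (triangles), DESeq2 (diamonds) and 6 others (grey). All 135 points lie above 0, the lowest being 0.34 for Cfp.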

How the data were processed

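The authors deposited whole-number counts per gene without normalization, and they deposited FPKM in a separate table, for 6 aorta libraries. The labels name build mm10. The aligner, counter, use of strand and annotation are not given in the sources used here. Positions came from GENCODE M21 (GRCm38, 55154 of 55335 identifiers matched) and sequences from RefSeq (GRCm38.p6).

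Counts were filtered (filterByExpr, minimum count 10, minimum total 15), TMM-normalized and fitted with edgeR 4.0.16 (quasi-likelihood, R 4.3.3) without covariates over 16612 genes, after tests on simulated data. Standard errors are the size of the log2 fold change over the root of F. Alternatives were DESeq2 1.42.0, limma 3.58.1 on log2(FPKM + pseudocount), RLE factors, other filters, a replicate block, removal of 44 mitochondrial genes and copies, and libraries left out. Shared sequence was counted in 50-base transcript windows.

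The genes and lists were chosen with earlier results of these data known. Named are the 9 genes, the 2 most abundant tested genes of each complement role list, copies, and the nearest profiles of C3, C1s1 and Cd55. Of the role lists, C8g had a log2 fold change of -0.18. Itgam, Cd59a, Hc, C6, C8a, C8b, C9, Serpinf1, Dcn, Col1a1, Col1a2, Mmp2, Csf1r, Mertk and Ngp were named after their values were seen. The same holds for Apoa2, Ahsg, Hp, Hfe, Steap4, Srpx and Pkig. Of the genes this rule names, 1 is not reported here.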

Additional observations from a re-analysis of the deposited data

How the results depend on the processing

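The count of 0 of the 9 genes called by edgeR was 3 with DESeq2 and lay between 0 and 4 with 1 library left out, the latter without aged replicate 2, and the cause was not tested. With 110 genes called in that setting and 334 by DESeq2, the counts over all genes moved as well. It stayed at 0 with the 8 other alternatives, run on all libraries or with young replicate 1 and aged replicate 2 both left out. The latter alternative was added after the data were seen. The 8 genes at an unadjusted p below 0.05 became 3 (pseudocount 1) and 4 (pseudocount 0.1) when limma was run on FPKM, and 5 in the fit with the replicate block. With 1 library left out they lay between 4 (without young replicate 1 or aged replicate 1) and 9 (without aged replicate 2). With young replicate 2 or aged replicate 3 left out there were 5. The calls among the other complement genes, 0, became 3 with DESeq2 and lay between 0 and 2 with 1 library left out.

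Of 135 values for single genes, 128 kept their direction and their side of the threshold, 7 gained a call and 0 reversed. The replicate block changed no call. The labels do not pair mice by replicate number, and shared handling by number was not tested. Deviations from the group mean in young and aged libraries of the same number correlated at 0.079, 0.134 and 0.128. With limma the all-gene median went from 0.02 to -0.12 (pseudocount 1) and -0.19 (pseudocount 0.1) on the log2 scale, and the median of the 9 genes was 0.79 and 0.97.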

Other observations

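C1rb, the copy of C1ra on chromosome 6 from 124570294 to 124581171, had 195 counts (4.03 CPM) in young replicate 1 and 0 counts in each of the other 5 libraries, where C1ra had between 2120 and 5165. Young replicate 1 is also the library with 14806 Xist counts. It had 2313 counts of C1ra. Of the windows of 50 bases in C1rb transcripts, 60.6% also occur in another gene, mainly C1ra. Counts of the copies of C4b and C1s1 showed no such difference between libraries, with C4a between 34 and 94 and C1s2 between 0 and 11.

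Itgam, a subunit of complement receptor 3, appears in the count table under 2 Ensembl identifiers. ENSMUSG00000030786 was counted 51, 14 and 12 times in the young libraries (replicates 1 to 3) and 168, 142 and 124 times in the aged ones, so every aged library lay above every young one. ENSMUSG00000108596, which GENCODE names Gm49368 and places over Itgam on the same strand, had 20, 24 and 34 counts in the young libraries. In the aged libraries it had 109, 0 and 101 counts. The DESeq2 adjusted p was 3.27e-05 for the first identifier and 0.6255 for the second, and those from edgeR were 0.306 and 0.661. Aged replicate 2 lay with the other aged libraries for the first identifier and below all libraries for the second. How reads were shared between these entries is not given in the sources used here.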
